A study of Mus musculus with 16 samples.

Results

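The 10 genes described here belong to epithelial polarity, cell adhesion and lumen formation, and were followed by RNA-seq in mouse pluripotent cells in which the kinase ERK was switched on and then off. They were the rows of the deposited count table whose Ensembl mouse identifiers carry the symbols Podxl, Cdh1, Cdh2, Epcam, Tjp1, Pard3, Pard6b, Ezr, Cgn and Itgb1. These are 10 of 52636 identifiers, and all 10 were among the 12742 genes that passed the filter on low counts. The cells were RSC (rosette stem cells), differentiated from embryonic stem cells of the line CRAFR26, into which a c-RAF kinase construct inducible with 4-hydroxytamoxifen (4OHT) had been targeted. RSC were kept in N2B27 medium with 2 µM IWP2, an inhibitor of Wnt secretion, LIF and 1 µM of the MEK inhibitor PD03 (PD0325901). In all groups PD03 was replaced for 48 h by 250 nM of the FGF receptor inhibitor PD17 (PD173074). Uninduced cells formed the group 0h. Cells with 250 nM 4OHT for 2 h formed 2h and for 4 h formed 4h, and rev had 4 h of 4OHT followed by 2 h of MEK inhibitor, whose dose at this step the labels do not give. Each group held 4 libraries, 2 from clone 4 and 2 from clone 8, which are separate clones of the line. The groups used here hold neither 4OHT without the construct nor 6 h of induction without MEK inhibitor, so rev differs from 4h in the inhibitor and in 2 h of further culture. The labels do not say whether the libraries of a clone came from separate cultures, so p-values measure the spread between these libraries.

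In the embryo, the cells of the naive epiblast polarise at implantation and arrange themselves as a rosette around a central point, at which a lumen then opens. Integrins receive the basal cue from laminin and collagen IV in the basement membrane, the PAR proteins and tight junctions mark the apical side, cadherins hold neighbouring cells together, and the sialomucin podocalyxin (Podxl) is carried to the apical membrane, where its negative charge pushes the facing membranes apart. ERK signalling downstream of FGF receptors moves pluripotent cells out of the naive state.

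The libraries held 4.31 to 10.4 M counts. A set of 8 features, each above 1% of all counts, took 46.7% to 78.9% of a library, which left 1.30 to 5.46 M counts for other genes. The lowest value was that of the rev clone 8 library 1. The 6 ERK response genes Dusp6, Etv4, Etv5, Egr1, Spry4 and Fos were all called higher at 2h and 4h than at 0h (median log2 changes 3.96 and 3.54), and 5 of 6 were called lower at rev than at 4h. All 10 pluripotency markers examined passed the filter, with summed levels of 1400 to 2140 CPM (counts scaled to library size by TMM). Of 5 markers of the rosette or formative state 4 passed, and Fgf5 held 0 to 8 counts per library. No fibroblast marker (0 of 5) and no mesoderm marker (0 of 4) passed. Of the markers of primitive endoderm 3 of 7 passed, of trophoblast 5 of 7 and of neural cells 3 of 4. Their sums were 3.32 to 9.99, 33.7 to 86.7 and 36.7 to 66.3 CPM, and most of the trophoblast and neural sums came from Tfap2c and Nes, which pluripotent or progenitor cells also express. In bulk RNA, fewer cells of a type and less RNA per cell cannot be told apart. On the third principal component, with 8.57% of the variance, libraries of 0h and 4h scored above 0 and those of 2h and rev below 0 in either clone. The comparison between 4h and 0h, like that between rev and 2h, therefore lies within one side of this split, and the other 4 cross it. The labels name no batch that the split could be compared with. By the labels, the last compound added (4OHT or MEK inhibitor) had been present for 2 h in both 2h and rev. At 4h it had been present for 4 h, and 0h had neither. The part of this timing in the split was not tested.

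**Figure D1:**
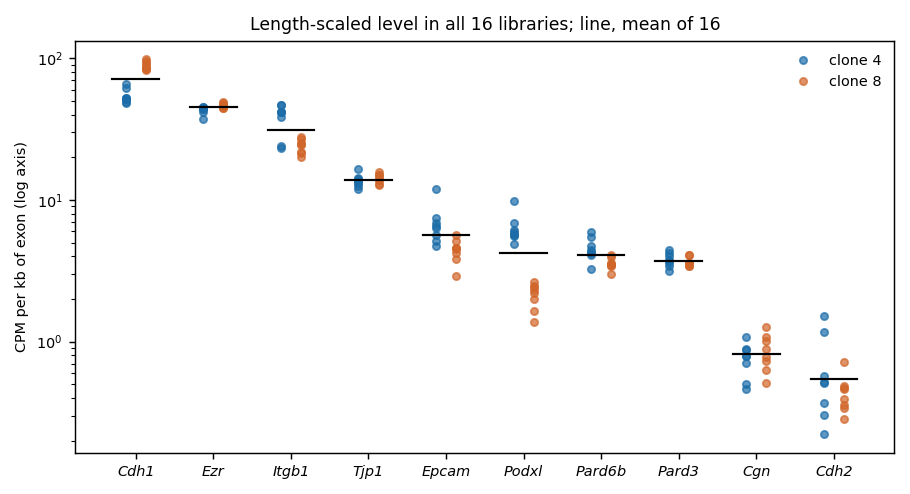
Level of each member per kb of exon, in TMM-scaled CPM on a log axis, with 1 point per library (blue, clone 4; orange, clone 8) and a line at the mean of 16. Cdh1, Ezr and Itgb1 are highest and Cgn and Cdh2 lowest, and Podxl splits into separate ranges by clone.

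Compared per kb of exon, Cdh1 had the highest level of the 10 genes, at 71.6 ± 19.01 CPM per kb (SD over 16 libraries), above 98.8% of the 12732 genes ranked. Ezr at 44.9 ± 2.67 and Itgb1 at 31.0 ± 9.80 CPM per kb followed. The library ranges of these neighbours overlapped: 48.3 to 97.8 for Cdh1, 37.2 to 49.05 for Ezr and 19.97 to 46.7 for Itgb1. Tjp1, at 13.9 ± 1.22 CPM per kb, ranged from 11.9 to 16.5 and lay below every Itgb1 value. Epcam (5.62 ± 2.04), Podxl (4.23 ± 2.41), Pard6b (4.05 ± 0.803) and Pard3 (3.72 ± 0.347 CPM per kb) formed a middle group whose ranges overlapped one another. Cgn (0.812 ± 0.223) and Cdh2 (0.543 ± 0.338 CPM per kb) were lowest, and their ranges of 0.465 to 1.26 and 0.223 to 1.504 also overlapped. The naive and epithelial cadherin thus stood far above the neural and mesenchymal one in every library. At these levels a library held 12 to 73 counts of Cgn, 13 to 91 of Cdh2 and 21 to 195 of Epcam, against 870 to 5683 of Cdh1, so a change of a given size is measured less precisely in the first 3.

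Promoter windows from 250 bases before to 50 bases after the start were taken from RefSeq (GRCm38.p6) for 7 of the 10 genes, all but Podxl, Cdh1 and Cdh2. Printed here are Itgb1 (chr8:128685404-128685703, + strand), the member raised at every time after induction; Cgn (chr3:94786433-94786732, - strand), which was lowest at 4h; and Epcam (chr17:87635729-87636028, + strand), whose change at 4h differed most between the clones. Capitals mark matches, on either strand, to CAGGTG (the E-box of Snail and Zeb factors), TGANTCA (AP-1), CCGGAA (ETS), GGGCGG (SP and KLF factors) or GCGNGGGCG (EGR).
Itgb1: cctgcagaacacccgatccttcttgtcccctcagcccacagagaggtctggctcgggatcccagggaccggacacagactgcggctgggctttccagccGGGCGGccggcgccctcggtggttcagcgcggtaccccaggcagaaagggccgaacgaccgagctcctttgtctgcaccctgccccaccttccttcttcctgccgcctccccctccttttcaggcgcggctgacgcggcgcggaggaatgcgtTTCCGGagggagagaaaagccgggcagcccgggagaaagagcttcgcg
Cgn: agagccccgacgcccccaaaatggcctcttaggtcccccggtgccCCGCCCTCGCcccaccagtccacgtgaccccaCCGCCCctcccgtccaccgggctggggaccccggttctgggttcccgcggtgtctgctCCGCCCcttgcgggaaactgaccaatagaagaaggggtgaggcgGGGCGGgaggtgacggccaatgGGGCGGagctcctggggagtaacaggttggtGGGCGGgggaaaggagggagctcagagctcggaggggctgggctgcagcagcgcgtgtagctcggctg
Epcam: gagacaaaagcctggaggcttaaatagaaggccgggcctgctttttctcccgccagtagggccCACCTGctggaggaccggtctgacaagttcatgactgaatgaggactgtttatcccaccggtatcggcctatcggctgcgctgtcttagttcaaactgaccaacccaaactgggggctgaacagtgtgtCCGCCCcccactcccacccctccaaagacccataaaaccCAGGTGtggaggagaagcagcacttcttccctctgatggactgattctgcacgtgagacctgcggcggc
The Itgb1 window held GGGCGG at -151 to -146 and CCGGAA on the reverse strand at 3 to 8, counted from the start. The Cgn window held 6 matches to GGGCGG, 1 of them overlapping a match to GCGNGGGCG at -204 to -196. Epcam had CAGGTG on the reverse strand at -187 to -182 and on the forward strand at -19 to -14, and 1 GGGCGG. Over the 8 windows of the 7 genes, GGGCGG was present in 7, CAGGTG in 3, GCGNGGGCG in 3, CCGGAA in 2 and TGANTCA in 1. Of all 32851 windows in the table, 35.7%, 20.2%, 5.55%, 14.9% and 7.81% held these motifs. A match shows letters in this window and not binding.

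**Figure D2:**
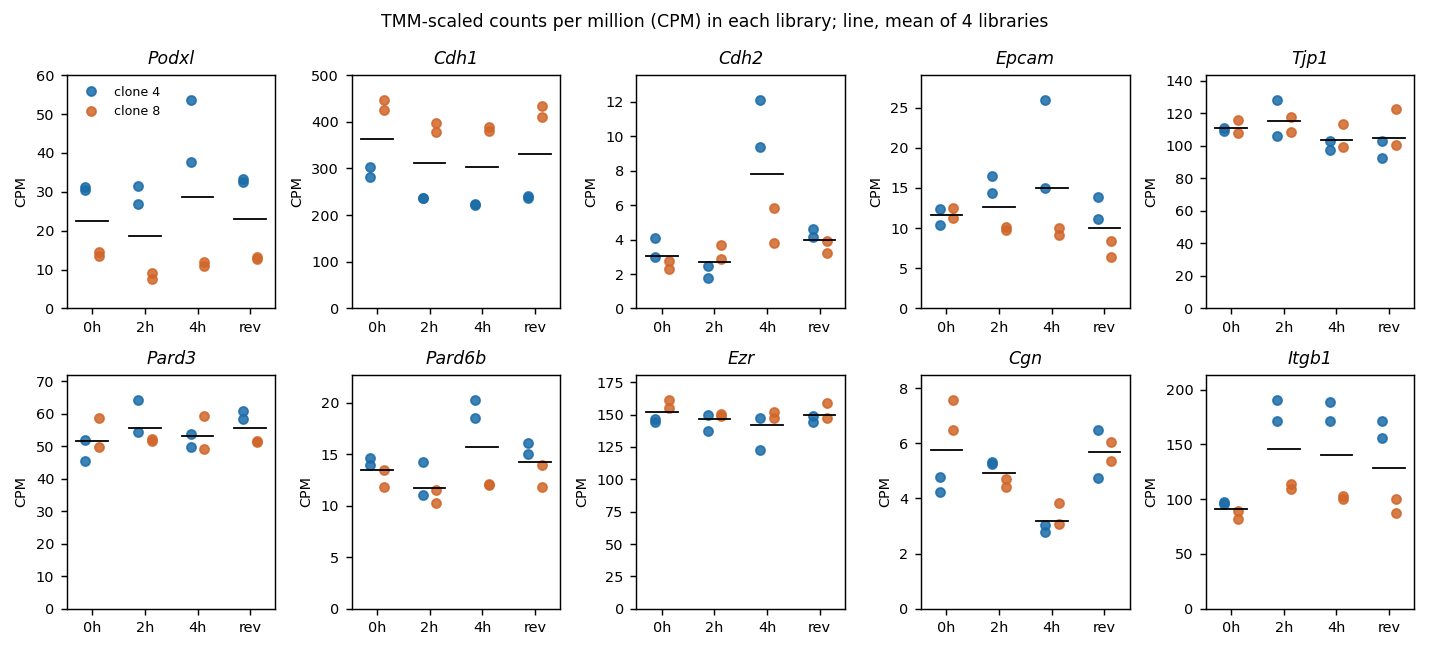
TMM-scaled CPM of each of the 10 genes in every library by group, with axes from 0, points coloured by clone (blue, clone 4; orange, clone 8) and a line at the mean of 4 libraries. Itgb1 lies above its 0h values in all 2h and 4h libraries, Cgn is lowest at 4h, and Cdh2 is highest in the 4h libraries of clone 4.

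Itgb1 (ENSMUSG00000025809, chr8:128685654-128733200) encodes integrin beta 1, the shared subunit of the main laminin, collagen and fibronectin receptors. Its level at 0h was 97.7 and 95.5 CPM in clone 4 and 89.3 and 81.5 CPM in clone 8. At 2h it was 171 and 191 CPM in clone 4 and 109.55 and 114 CPM in clone 8, so that every 2h library lay above every 0h library. At 4h the values were 189, 171, 103 and 99.9 CPM in the same order, again all above 0h. At rev they were 156, 171, 87.2 and 101 CPM, and the clone 8 range overlapped that of 0h. Itgb1 rose by a log2 change of 0.63 at 2h against 0h (SE 0.110, adjusted p = 0.000886) and was 0.56 higher at 4h (SE 0.112, adjusted p = 0.00253). It was still 0.44 higher at rev than at 0h (SE 0.112, adjusted p = 0.0169), and from 4h to rev the change was -0.12 with a 95% interval of -0.35 to 0.11. All calls are from edgeR's quasi-likelihood test with adjustment over the 12742 genes. The calls at 2h and 4h were kept without any 1 library. The call at rev was lost without either 0h library of clone 4 (log2 changes 0.36 and 0.35) or without the rev clone 4 library 2 (0.38).

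The rise of Itgb1 was larger in clone 4. Within clone 4 it was 0.91 at 2h (adjusted p = 7.52e-08) and 0.90 at 4h (adjusted p = 4.05e-08). Within clone 8 it was 0.38 at 2h (adjusted p = 0.0089) and 0.25 at 4h (adjusted p = 0.183). At rev against 0h it was 0.76 in clone 4 (adjusted p = 2.3e-06) and 0.15 in clone 8 (adjusted p = 0.445). The clone difference at rev against 0h was not tested. The difference between the clones (change in clone 8 less that in clone 4) was -0.52 at 2h (SE 0.146, adjusted p = 0.0215) and -0.66 at 4h (SE 0.148, adjusted p = 0.00412). The difference at 2h was past the threshold in the full set but lost without any of 5 libraries: 0h clone 4 library 2 (-0.49), 0h clone 8 library 1 (-0.43), 2h clone 4 library 2 (-0.44), 2h clone 8 library 1 (-0.47) or 2h clone 8 library 2 (-0.55). At 4h it was lost without 0h clone 8 library 1 (-0.57, adjusted p = 0.0623) or 4h clone 4 library 1 (-0.58, adjusted p = 0.0633).

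At 4h against 0h the cadherins moved in opposite directions, from very different levels. Cdh1 (ENSMUSG00000000303, chr8:106603351-106670246), E-cadherin, is the adherens junction cadherin of epithelia and naive pluripotent cells. Its level at 0h was 302 and 281 CPM in clone 4 and 448 and 425 CPM in clone 8. At 2h it was 237, 236, 377 and 398 CPM, and at 4h 223, 221, 389.65 and 381 CPM, in the same order. Within each clone both later groups lay below 0h, whereas the pooled groups overlapped because clone 8 was higher throughout. Cdh1 fell by 0.24 on the log2 scale at 2h (SE 0.0709, adjusted p = 0.0267) and by 0.29 at 4h (SE 0.0712, adjusted p = 0.0115), which is 1.22-fold at 4h. At rev the levels were 241, 237, 434 and 409.5 CPM, with a change from 4h of 0.12 (adjusted p = 0.322) and from 0h of -0.17 (adjusted p = 0.136). The call at 4h was lost without the 0h clone 4 library 1 (-0.24, adjusted p = 0.0533). That at 2h was lost without that library (-0.19), without 0h clone 4 library 2 (-0.24), 2h clone 4 library 2 (-0.24) or 2h clone 8 library 1 (-0.23), and with no filter on low counts (-0.21, adjusted p = 0.162). Within clone 4 Cdh1 was called lower than at 0h at 2h (-0.30), 4h (-0.39) and rev (-0.29, adjusted p = 0.0367). Within clone 8 the changes were -0.17, -0.18 and -0.05, none called. The clone differences at 2h and 4h, 0.13 and 0.21, did not pass (adjusted p = 0.618 and 0.504).

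Cdh2 (ENSMUSG00000024304, chr18:16588877-16809246) encodes N-cadherin, which replaces E-cadherin in neural and mesenchymal cells. It stood at 2.997, 4.09, 2.28 and 2.73 CPM at 0h and at 2.46, 1.80, 2.89 and 3.72 CPM at 2h, with clone 4 first. At 4h it reached 12.1 and 9.40 CPM in clone 4 and 3.82 and 5.82 CPM in clone 8. At rev it was 4.63, 4.17, 3.94 and 3.20 CPM. All 4h libraries lay above all 2h libraries, and above 0h within each clone. The log2 change was 1.31 at 4h against 0h (SE 0.288, adjusted p = 0.00543) and 1.34 at 4h against 2h (SE 0.274, adjusted p = 0.00457), 2.48-fold and 2.53-fold. These comparisons share the 4h libraries, and both calls were kept without any 1 library. Cdh2 fell by 0.94 from 4h to rev (SE 0.277, adjusted p = 0.0368), a call lost without 4h clone 4 library 1 (-0.63, adjusted p = 0.226), 4h clone 4 library 2 (-0.90), rev clone 4 library 1 (-0.96), rev clone 4 library 2 (-0.88) or rev clone 8 library 2 (-0.91). Within clone 4 the rise at 4h against 0h was 1.61 (adjusted p = 3.13e-05). Within clone 8 it was 0.91 (adjusted p = 0.0725). The difference between the clones at 4h against 0h, -0.70, did not pass (95% interval -1.56 to 0.15, adjusted p = 0.446). At 2h against 0h the change of Cdh2 over both clones was -0.03 (adjusted p = 0.965). It was -0.75 in clone 4 (adjusted p = 0.126) and 0.42 in clone 8 (adjusted p = 0.364). That clone difference, 1.17, did not pass (adjusted p = 0.116). From 2h to 4h Cdh2 changed by 2.36 in clone 4 (adjusted p = 1.05e-07) and by 0.49 in clone 8 (adjusted p = 0.276). From 4h to rev it changed by -1.33 in clone 4 (adjusted p = 6.18e-05) and by -0.44 in clone 8 (adjusted p = 0.518). The clone difference from 4h to rev, 0.89, did not pass (adjusted p = 0.15), and that from 2h to 4h was not tested.

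Epcam (ENSMUSG00000045394, chr17:87635979-87651129) encodes an epithelial adhesion molecule that is also abundant on undifferentiated pluripotent cells. In clone 4 it was 10.4 and 12.4 CPM at 0h, 16.5 and 14.4 at 2h, 26.0 and 14.98 at 4h and 11.2 and 13.9 CPM at rev. In clone 8 it was 12.5 and 11.2 CPM at 0h, 9.80 and 10.1 at 2h, 10.1 and 9.19 at 4h and 6.36 and 8.44 CPM at rev. Every later library of clone 8 thus lay below its 0h values, and the 2h and 4h libraries of clone 4 above theirs. No comparison of groups over both clones called Epcam; the change at 4h against 0h was 0.28 with a 95% interval of -0.13 to 0.70. Within clone 4 it rose by 0.90 at 4h (adjusted p = 0.000953) and fell by 0.77 from 4h to rev (adjusted p = 0.00138). Within clone 8 the change at 4h was -0.30 (adjusted p = 0.444). The difference between the clones at 4h was -1.20 (SE 0.283, adjusted p = 0.00638). It was -0.68 (adjusted p = 0.367) without 4h clone 4 library 1, the library with 26.0 CPM, and -1.10 (adjusted p = 0.0669) without 0h clone 8 library 1.

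Of the tight junction genes, Cgn changed and Tjp1 did not pass in any comparison. Cgn (ENSMUSG00000068876, chr3:94760069-94786492) encodes cingulin, which links the junction to actomyosin. Its levels at 0h were 4.79 and 4.24 CPM in clone 4 and 7.57 and 6.47 CPM in clone 8. At 2h they were 5.32, 5.25, 4.71 and 4.42 CPM, and at 4h 2.80, 3.05, 3.82 and 3.06 CPM, in the same order. At rev they were 4.74, 6.50, 6.06 and 5.37 CPM. Each 4h library lay below every library of the other groups. Cgn fell by 0.86 at 4h against 0h (SE 0.205, adjusted p = 0.00889, 1.82-fold) and rose by 0.83 from 4h to rev (SE 0.207, adjusted p = 0.0151, 1.77-fold), while 4h against 2h gave -0.60 (adjusted p = 0.058). The fall at 4h against 0h was kept without any 1 library. The rise at rev was lost without 4h clone 4 library 1 (0.78, adjusted p = 0.0588) or rev clone 4 library 2 (0.70, adjusted p = 0.0758). Within clone 8 Cgn was already lower at 2h (-0.63, adjusted p = 0.0357), whereas in clone 4 the change at 2h was 0.24 (adjusted p = 0.561). The clone difference at 2h, -0.87, did not pass (adjusted p = 0.109). At 4h against 0h the change was -0.63 in clone 4 (adjusted p = 0.164) and -1.01 in clone 8 (adjusted p = 0.00928). From 4h to rev it was 0.97 in clone 4 (adjusted p = 0.00927) and 0.67 in clone 8 (adjusted p = 0.166). Neither of these clone differences passed (-0.38 and -0.29, adjusted p = 0.743 and 0.703).

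Tjp1 (ENSMUSG00000030516, chr7:65296165-65527781), the scaffold protein ZO-1, ranged from 92.8 to 129 CPM over all libraries. Its 95% interval for the log2 change was -0.13 to 0.23 at 2h and -0.29 to 0.08 at 4h against 0h, and -0.17 to 0.20 from 4h to rev.

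Podxl (ENSMUSG00000025608, chr6:31519488-31563981), the apical sialomucin named above, differed more between clones than between groups. In clone 4 it was 30.4 and 31.2 CPM at 0h, 31.4 and 26.95 at 2h, 53.7 and 37.6 at 4h and 33.4 and 32.5 CPM at rev. In clone 8 it was 13.5 and 14.5 CPM at 0h, 9.04 and 7.57 at 2h, 12.1 and 11.03 at 4h and 13.3 and 12.8 CPM at rev. The 2 clones did not overlap in any group. In both, the 4h libraries lay above the 2h libraries, and the log2 change from 2h to 4h was 0.60 (SE 0.152, adjusted p = 0.0162). This call rested on 4h clone 4 library 1, without which the change was 0.38 (adjusted p = 0.118). Against 0h the paths parted: clone 4 was 0.60 higher at 4h (adjusted p = 0.00148), and clone 8 was lower at 2h (-0.75, adjusted p = 0.00179) and not called at 4h (-0.26, adjusted p = 0.422). The difference between the clones was -0.67 at 2h (adjusted p = 0.0508) and -0.87 at 4h (SE 0.220, adjusted p = 0.0124). From 4h to rev clone 4 fell by 0.51 (adjusted p = 0.00342) and clone 8 changed by 0.16 (adjusted p = 0.733), a difference of 0.67 (SE 0.228, adjusted p = 0.0488). Without 4h clone 4 library 1 the differences were -0.55 (adjusted p = 0.298) at 4h and 0.35 (adjusted p = 0.44) at rev. The difference at 4h was also lost without 0h clone 8 library 2 (-0.81, adjusted p = 0.0661) or 4h clone 8 library 2 (-0.81, adjusted p = 0.0526). That at rev was lost without any of 11 of the 16 libraries, with DESeq2 (adjusted p = 0.123) and with no filter (0.56, adjusted p = 0.176).

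Ezr (ENSMUSG00000052397, chr17:6738041-6782784) encodes ezrin, which ties apical membrane proteins such as podocalyxin to actin. It ranged from 122 to 161 CPM and was not called in any comparison. Its 95% intervals were -0.20 to 0.10 at 2h, -0.25 to 0.05 at 4h against 0h and -0.07 to 0.23 from 4h to rev. A share of 0.122% of its exon bases lies under Sytl3 on the opposite strand; the other 9 genes share no exon bases with another annotated gene.

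The PAR genes encode parts of the apical polarity complex with the kinase aPKC. Pard3 (ENSMUSG00000025812, chr8:127063893-127612286), the scaffold that places the complex at the membrane, ranged from 45.5 to 64.3 CPM and was not called in any comparison. Its 95% interval was -0.10 to 0.31 at 2h and -0.17 to 0.25 at 4h against 0h. Pard6b (ENSMUSG00000044641, chr2:168081004-168101203), the subunit that couples aPKC to Cdc42, was 14.6, 13.9, 13.5 and 11.8 CPM at 0h, with clone 4 first. At 4h it was 20.3 and 18.5 CPM in clone 4 and 12.0 and 12.1 CPM in clone 8, so that clone 4 at 4h lay above all other libraries, in which it ranged from 10.2 to 16.04 CPM. Over both clones the change at 4h was 0.19 (adjusted p = 0.377), and from 2h to 4h it was 0.39 (adjusted p = 0.0529). Within clone 4 it rose by 0.46 at 4h against 0h (adjusted p = 0.0463), a call that a fit of clone 4 alone did not make. The difference between the clones at 4h against 0h was -0.54 (adjusted p = 0.212). From 2h to 4h Pard6b rose by 0.64 in clone 4 (adjusted p = 0.00305), a call that the fit of clone 4 alone also made. In clone 8 that change was 0.14 (adjusted p = 0.649), and the clone difference from 2h to 4h was not tested.

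Counted over the 10 members, 2 were called at 2h against 0h, Itgb1 higher and Cdh1 lower, where 17.0% of all genes were called. At 4h against 0h 4 were called, Itgb1 and Cdh2 higher and Cdh1 and Cgn lower, with 12.9% of all genes called. At 4h against 2h 2 were called, both higher (Podxl and Cdh2), with 12.1% of all genes called in either direction and 5.78% higher. From 4h to rev 2 were called, Cgn higher and Cdh2 lower, with 9.61% of all genes called, and 1 at rev against 0h (Itgb1), with 10.5%. At rev against 2h 0 of 10 were called by edgeR and 0 by DESeq2, with 1.78% of all genes called by edgeR; Podxl alone had an unadjusted p under 0.05 (0.0291). Comparisons with a group in common share its libraries. The libraries of the groups did not overlap for 1 member at 2h against 0h (16.3% of all genes), for 2 at 4h against 0h (13.5%), for 2 at 4h against 2h (11.1%) and for 1 from 4h to rev (8.87%). They overlapped for all 10 members at rev against 0h and at rev against 2h, where 11.9% and 6.36% of all genes did not overlap. The 4 of 10 called at 4h against 0h stood above the share of all genes, 12.9%. The 2 of 10 called in either direction at 4h against 2h and from 4h to rev stood beside 12.1% and 9.61%. The other counts stood nearer to their shares. The members were chosen with earlier results of these data known and were not tested as a set, so these counts only describe them. The median log2 change of the members was -0.04 at 2h and 0.11 at 4h against 0h, beside 0.00 and -0.01 over all genes. Scaled to library totals in place of TMM, the median of all genes moved to between -0.35 and 0.11 in the 6 comparisons. Relative to it the called changes differed by at most 0.05 from those above, but 3 of the 11 calls passed, all of Cdh2.

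**Figure D3:**
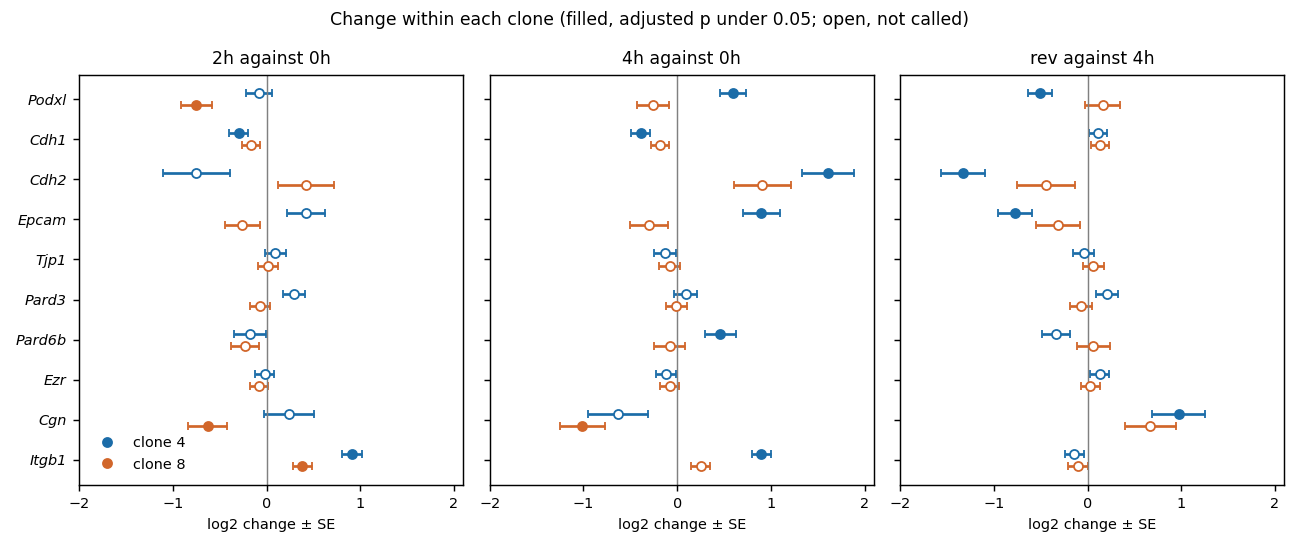
Log2 change of each gene within clone 4 (blue) and clone 8 (orange), with SE bars, at 2h and at 4h, each against 0h, and from 4h to rev (4 libraries per clone and comparison). Filled points were called at an adjusted p under 0.05. At 4h Podxl, Cdh2, Epcam, Pard6b and Itgb1 were called higher in clone 4 and not in clone 8. The test of the clone difference at 4h against 0h passed for Podxl, Epcam and Itgb1 and not for Cdh2 or Pard6b.

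Averaged over the groups, 5 of the 10 genes differed between the clones, against 34.9% of all genes. Podxl was lower in clone 8 by 1.58 on the log2 scale (SE 0.111, adjusted p = 2.35e-09, 2.99-fold), and Cdh1 was higher by 0.73 (SE 0.0505, adjusted p = 1.92e-09, 1.65-fold). Itgb1 (-0.63, adjusted p = 3.35e-06), Epcam (-0.61, adjusted p = 0.00201) and Pard6b (-0.34, adjusted p = 0.00618) were lower in clone 8. Podxl and Cdh1 differed in each of the 4 groups, by -1.14, -1.82, -2.01 and -1.34 for Podxl and by 0.58, 0.71, 0.79 and 0.82 for Cdh1 at 0h, 2h, 4h and rev. Itgb1 and Epcam did not pass at 0h (-0.17 and 0.05) and were called lower in clone 8 at 2h, 4h and rev. Podxl lies on chromosome 6, on which the 624 tested genes had a median clone difference of 0.16 and 46.2% were called; the direction for Podxl was the opposite. Markers of cell state and of other cell types differed between the clones too. Of the trophoblast markers 4 of 5 were lower in clone 8 (median -1.52), led among those with enough counts by Gata3 (-1.52), where 17.8% of all genes were lower and 17.1% higher. The neural markers moved both ways, with Pax6 lower (-1.75) and Sox1 higher (1.29). Of the rosette or formative markers Dnmt3b (-1.04) and Otx2 (-0.95) were lower and Sox3, at low counts, was higher (1.06). Of the 10 pluripotency markers 3 were higher, with Nanog first (0.93), and 3 lower, with Lin28a first (-1.14). Their part in the clone differences of the members was not tested. These are 2 lines, and the test speaks of these lines alone.

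**Figure D4:**
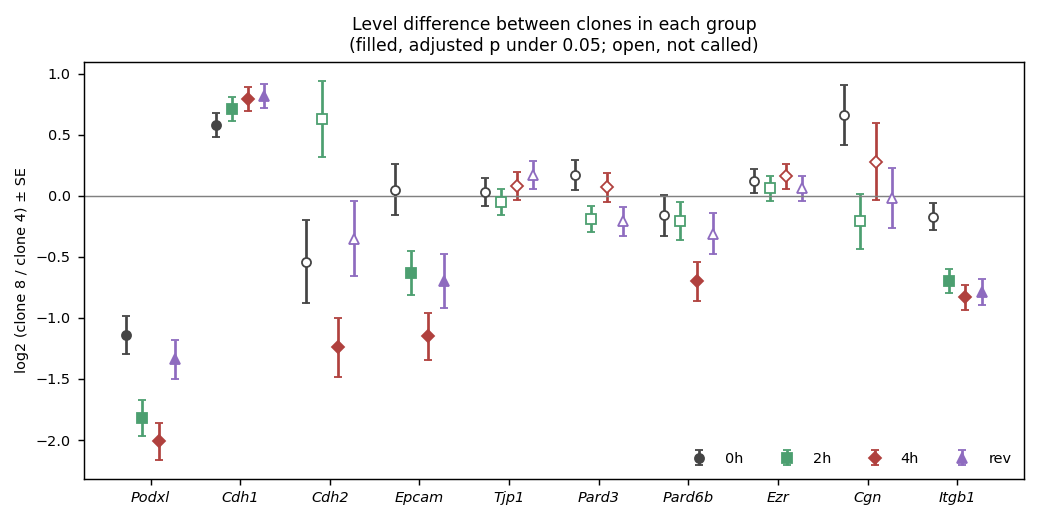
Log2 ratio of clone 8 to clone 4 for each gene at 0h, 2h, 4h and rev, with SE bars (2 libraries per clone and group). Filled points were called at an adjusted p under 0.05; Podxl lies below 0 and Cdh1 above 0 in all 4 groups, and Epcam and Itgb1 are called below 0 in the 3 later groups.

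Tests of the clone difference in a change called 1 of 10 members at 2h against 0h, where 7.94% of all genes were called. They called 3 at 4h against 0h, all with a lower change in clone 8 (5.72% of all genes called, 3.69% in that direction), and 1 from 4h to rev (13.2%). The ERK response genes differed between the clones as well. Their summed level was 95.1 to 96.25 CPM in clone 4 and 115 to 118 CPM in clone 8 at 0h, 797 to 948 against 419.7 to 439.6 CPM at 2h, and 749 to 847.5 against 271 to 274 CPM at 4h. At 4h against 0h 5 of these 6 genes had a smaller rise in clone 8 (median difference -2.51), and at 2h 2 of 6 (-0.98). The part of this in the clone differences of Itgb1, Podxl and Epcam was not tested. Under library totals the median clone difference of all genes moved to 0.56 at 2h, 0.35 at 4h and -0.67 at rev, and none of the 5 calls passed. On that scaling Itgb1 at 2h was 0.06 and Podxl at rev -0.01, and relative to the shifted medians they were -0.50 and 0.66, like the values above.

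Other genes of the same structures are given by counts, from lists that hold some of the 10 genes too. Of all genes, 9.49% were called higher and 7.48% lower at 2h against 0h, 7.35% and 5.56% at 4h against 0h, and 4.50% and 5.10% from 4h to rev, and the counts of each list stand beside these shares. In the matrix adhesion list 6 of 25 tested genes were higher and 0 lower at 2h against 0h (median 0.11), among them Itga9 (0.83), an integrin alpha subunit, Col4a2 (0.70), a collagen IV chain, and Tns3 (0.70), which links integrins to actin. At 4h 5 were higher and 4 lower; Tns3 (1.07), Itga9 (1.00) and the laminin chain Lamb1 (0.81) rose, and the laminin receptor subunit Itga6 (-0.46), the laminin chain Lama5 (-0.41) and Itgb5 (-0.38) fell. At rev 6 were higher and 1 lower than at 4h, with the basement membrane genes Col4a2 (1.28), Col4a1 (0.96) and Lama5 (0.74) rising and Tns3 (-0.36) falling. From 2h to 4h the log2 changes of Col4a1 and Col4a2 were -0.93 and -1.09, both called lower, in a comparison that crosses the split on the third component.

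In the adherens junction list 3 of 15 were higher and 1, Cdh1, lower at 2h against 0h, beside 9.49% and 7.48% of all genes. Jup (0.47), plakoglobin, Vcl (0.46), vinculin, and Ctnna1 (0.26), alpha-catenin, rose. At 4h 5 were higher and 1 lower (median 0.06), with Cdh2, Nectin1 (1.00), a nectin adhesion receptor, and Jup (0.70) rising most. From 4h to rev 0 rose and 2 fell, Cdh2 and Nectin1 (-0.81). In the tight junction list 1 of 17 was lower at 2h, the claudin Cldn4 (-0.80), with a median over the list of -0.05. At 4h 1 rose and 3 fell (median -0.50): Ybx3 (0.31), a junction-bound regulator of transcription, against Cgn, Cldn4 (-0.60) and Jam2 (-0.52), a junctional adhesion molecule. Between 4h and rev 3 rose and 2 fell; Cgn, Tjp3 (0.81) and Jam2 (0.61) rose, and Cldn12 (-0.56) and Ybx3 (-0.36) fell.

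In the list of apical membrane and lumen trafficking genes 5 of 23 were higher and 0 lower at 2h (median 0.12), beside 9.49% and 7.48% of all genes, including Exoc5 (0.68), an exocyst subunit, Rab11b (0.44), a recycling endosome GTPase, and Cdc42 (0.30). At 4h 4 were higher and 0 lower (median 0.11), including Rab27a (0.90), a GTPase of secretory vesicles, and Msn (0.64) and Slc9a3r1 (0.64), the ezrin relative moesin and the ezrin partner NHERF1. From 4h to rev 0 rose and 3 fell, Rab27a (-1.07), Slc9a3r1 (-0.53) and its relative Slc9a3r2 (-0.49). In the list of polarity complexes 4 of 22 rose and 1 fell at 2h, with Amotl2 (0.75), an angiomotin family scaffold, and Lin7c (0.47) and Mpp5 (0.31) of the Crumbs complex. At 4h 0 rose and 1 fell, Amotl1 (-0.42), and from 4h to rev 1 rose, Amotl2 (0.98). The rises of Amotl2, Lin7c and Mpp5 at 2h and their falls from 2h to 4h (-0.93, -0.42 and -0.39) follow the signs of the third component.

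A list of 10 tested regulators of the epithelial or mesenchymal state holds 7 transcription factors of the Snail, Zeb, Twist and grainyhead families, the splicing regulators Esrp1 and Esrp2, and Otx2. At 2h 2 of the 10 rose, Snai3 and Grhl3, and 1 fell, Otx2. At 4h 4 rose and 0 fell: Snai3, Grhl3, Twist1 (2.86) and Esrp1 (1.23), the last 2 below the count minimum for naming and named after their values were seen. Grhl3, an epithelial grainyhead factor, rose by 0.59 at 2h and 0.81 at 4h, and fell by 0.68 from 4h to rev. Snai3, a Snail family repressor, held 1 to 6 counts per library at 0h and 29 to 617 at 4h, with a fitted log2 change of 5.89 (adjusted p = 6.56e-05) that depends on the prior count at so low a level. Its rise was smaller in clone 8, with a clone difference of -4.78 (adjusted p = 0.00269). At rev against 4h Snai3 changed by -3.89 (adjusted p = 0.00041). In that comparison 1 of the 10 was higher and 3 were lower, beside 4.50% and 5.10% of all genes. The 1 that rose was Snai1, another Snail family member (1.98, adjusted p = 0.00448). It lay below the count minimum and was named after its values were seen. Of the 4 tested markers of the rosette or formative state 1 was lower at 2h, the transcription factor Otx2 (-0.90, adjusted p = 0.00402), which was not called at 4h (-0.20, adjusted p = 0.557). At 4h 1 was higher, the POU factor Pou3f1 (1.43, adjusted p = 0.0181), and the median of the 4 was 0.59. Pou3f1 fell again from 4h to rev (-1.38, adjusted p = 0.0268), and its change at 4h was smaller in clone 8 (clone difference -2.35, adjusted p = 0.000194).

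Markers of other cell types moved as well, several at low counts and named after their values were seen. Of the trophoblast markers 3 of 5 were called higher at 2h against 0h (median 1.07), Eomes (1.07), Krt7 (1.92) and Hand1 (2.07). The same 3 were called higher at rev against 0h (median 0.78), where 5.51% of all genes were. At 4h against 0h Eomes was higher (1.24) and Tfap2c lower (-0.59). The summed trophoblast level was 50.3 to 75.7 CPM at 0h, 33.7 to 86.7 at 2h, 42.1 to 59.7 at 4h and 40.0 to 66.6 CPM at rev, so its ranges overlapped. Of the primitive endoderm markers 1 of 3 was higher at 2h, Dab2 (1.27), and 2 of 3 at rev against 0h, Dab2 and Pdgfra (median of the 3, 1.36), with sums of 4.77 to 5.76 CPM at 0h, 5.71 to 7.19 at 2h, 3.32 to 5.07 at 4h and 6.14 to 9.99 CPM at rev. The neural marker Pax6 was higher at 2h (1.31) and 4h (2.37) and fell from 4h to rev (-2.19), while Sox1 was lower at 2h (-0.88). Itgb1 was called higher in the comparisons of 2h, 4h and rev with 0h, and the part of these markers in the changes of the members was not tested.

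Itgb1 and Cdh2 were each called in 3 of the 6 group comparisons, more than any other member. Over the 16 libraries, among 7864 genes with at least 50 counts on average, the log2 CPM of Itgb1 was most like that of Ctnna1 (Pearson r = 0.951), Rhbdf1 (0.943) and Cbfb (0.94). Cdh2 was most like Rarg (0.931), Srrt (0.91) and Cd38 (0.906) among 7865 genes. The libraries share clone and group, and the values describe likeness over them. Among the members themselves, after clone means were removed, the lowest value was that of Cdh1 with Itgb1 (-0.902), followed by Cdh2 with Cgn (-0.762), and the highest was Podxl with Pard6b (0.706).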

How the data were processed

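The deposited values are raw, unnormalized read counts, as whole numbers in 1 table of 52636 Ensembl gene IDs by 16 libraries. Total RNA was depleted of ribosomal RNA and made into NEBNext Ultra II libraries, per the labels' protocols. STAR 2.5.3a, bcl2fastq 2.19.1 and the build mm10 are named in the submitters' processing notes. The counting program, its annotation and its strand setting are not given in the sources used here. Symbols and 1-based coordinates came from GENCODE M21 (GRCm38) by gene ID: 52489 matched and 147 did not. Groups and clones came from the sample titles.

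Genes were kept with edgeR's filterByExpr by group (minimum count 10, minimum total 15), scaled by TMM and tested with the quasi-likelihood F test (edgeR 4.0.16, R 4.3.3) over all 16 libraries, with group and clone as terms. A second model, with 1 mean for each of the 8 pairs of group and clone, gave the changes within a clone and tested their differences. P-values were adjusted by Benjamini-Hochberg across the 12742 genes; called means below 0.05. SE was computed as the absolute log2 change over the root of F. CPM are TMM-scaled (prior count 2 for log2 CPM). Intervals are 95% and use the quasi-likelihood degrees of freedom.

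From each list, up to 3 called genes per direction with the largest change were named where the higher group averaged at least 50 counts; all members are named whatever their values, and Cdh2 and Cgn within lists are named as members. Genes most like a member were ranked by Pearson correlation, without predicted genes. The tight junction list is given without 1 gene, which is not reported here. Members and lists were chosen with earlier results of these data known. Alternatives were size factors, library totals, DESeq2 1.42.0, no filter, the replicate block, no clone term, each clone alone, removal of the 8 largest features and leaving out each library; totals outside those features were added after seeing the data. No library was a repeat of another within sampling noise (chi-square over degrees of freedom of 1.29 to 4.04 between libraries of 1 clone and group). Deviations of same-numbered libraries from their group and clone means correlated at -0.0106 on average (-0.133 to 0.119 over 24 pairs), so the numbers were not taken as pairs. The test procedure was tested on simulated data.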

Additional observations from a re-analysis of the deposited data

Results flagged for a closer look

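Ezr in the clone 4 library 1 lay apart from its group at 2 times. At 2h it was 137.6 CPM, the lowest of 4 libraries, with a gap to the next that was 0.882 of the range of the group. At 4h it was 122.4 CPM, with a gap of 0.85 of the range. For 4 libraries of 1 kind, chance gives such a gap in about 1 of 20, and 40 combinations of gene and group were examined. The groups here hold 2 clones, for which this rate was not worked out.

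In 5 cases a change differed between the clones in a test of the difference, given as clone 8 minus clone 4. For Itgb1 this was -0.52 at 2h against 0h and -0.66 at 4h against 0h. For Podxl it was -0.87 at 4h against 0h and 0.67 at rev against 4h. For Epcam it was -1.20 at 4h against 0h. The 4h clone 4 library 1, which had the highest Podxl and Epcam and the lowest Ezr of all 16 libraries, entered 4 of the 5.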

How the results depend on the processing

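Of 880 values of members under settings other than leaving out a library, 141 kept a call with its direction, 37 lost the call, 15 gained one and 2 were calls that reversed and were lost. The other 685 were not called either way, and 59 of these changed sign, 24 of them with library totals. Of 1600 values without 1 library, 297 kept a call with its direction, 39 lost it, 8 gained one and 0 calls reversed; 1256 were not called either way, and 50 of these changed sign. Size factors and removal of the 8 largest features left all 100 values each on their side of the threshold. With library totals, which include these 8 features, 0 members were called at 2h against 0h and 1 at 4h against 0h. The counts were 1 at 4h against 2h, 1 at rev against 4h and 0 at rev against 0h. With the same totals the clone differences called fell to 0 in all 3 comparisons, and the reversed calls were 0.06 for Itgb1 at 2h against 0h (adjusted p = 0.919) and -0.01 for Podxl at rev against 4h (adjusted p = 0.986).

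Without the clone term the counts were 0 at 2h against 0h, 2 at 4h against 0h, 1 at 4h against 2h, 0 at rev against 4h and 0 at rev against 0h; the clone difference then enters the spread. In clone 4 alone 4 members were called at 4h against 2h and 4 at rev against 4h. In clone 8 alone the counts were 1 at 4h against 0h, 0 at 4h against 2h, 0 at rev against 4h and 1 at rev against 2h. Fits of 1 clone use 8 libraries. With no filter 1 member was called at 2h against 0h, and 0 clone differences at 2h against 0h and 0 at rev against 4h. DESeq2 called 0 clone differences at rev against 4h. With totals outside the 8 features, chosen after seeing the data, 2 members were called at rev against 0h and 0 clone differences at rev against 4h. With the replicate number as a block, 1 member was called at rev against 4h (Cdh2 then had an adjusted p of 0.0579) and 0 clone differences at rev against 4h (Podxl, 0.0512); the block changed no other call. The cause was not tested for these losses.

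Leaving out each library in turn gave 1 to 3 members called at 2h against 0h, 3 to 4 at 4h against 0h, 1 to 3 at 4h against 2h, 0 to 2 at rev against 4h, 0 to 1 at rev against 0h and 0 to 0 at rev against 2h. It gave 5 to 6 for the level between clones, and 0 to 2, 0 to 3 and 0 to 1 for the clone differences at 2h, 4h and rev. Cgn, Cdh2 and Epcam held 12 to 195 counts per library, and their changes had the largest standard errors of the 10 genes in all 6 group comparisons.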
